A study of Mus musculus with 10 samples.

Results

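The liver makes most of the proteins that circulate in blood plasma to form clots and to mark microbes for destruction, and 39 genes of these complement and coagulation systems were followed here in mouse liver RNA. They were given as a list of gene symbols by a rule that itself used no measured value. Earlier results of these data were known when the list was chosen. The symbols were matched by Ensembl identifier to the 41388 genes of the count table. A row was matched for 38 of the 39. None was matched for Klkb1, which encodes plasma prekallikrein, so no value is given for it. Every one of the 38 passed the filter on low counts in every comparison.

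Coagulation is a chain of proteases that are made as inactive precursors and cleave each other in turn, ending in thrombin, which turns fibrinogen into fibrin. Plasmin later dissolves the fibrin, and inhibitors such as antithrombin and the protein C pathway hold the chain in check. Complement is a second chain of this kind. Its classical, lectin and alternative arms converge on the cleavage of C3, and the terminal components C5 to C9 then assemble into a pore in the target membrane. Hepatocytes are the main source of nearly all of these proteins, and several, fibrinogen among them, are known to respond to inflammation as part of the acute phase.

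Liver RNA came from 10 mice aged 10 weeks of the obese line BFMI860-12/Hber (BFMI), the lean strain C57BL/6NCrl (B6N) and their reciprocal crosses. In matBFMI (3 F1 males) the mother was BFMI and the father B6N, and in patBFMI (3 F1 males) the parents were swapped, the males of each cross coming from different dams. Each inbred strain gave 1 male and 1 female, so a strain and a sex have no replicate animal of their own. The F1 males received a high fat diet from weaning until dissection. The methods of the study and the series' design text say that the inbred animals sequenced were raised on a high fat diet as well, while in the labels of the samples parental animals are on a standard breeding diet. If the labels hold for these animals, diet and hybrid state cannot be told apart. According to the paper, BFMI carries a major recessive mutation that makes homozygous animals obese while young. The F1 males are heterozygous between BFMI and B6N on the autosomes. Their X chromosome and mitochondria come from the mother and their Y chromosome from the father, so these differ between the crosses. Among the members, F9 lies on the X chromosome. The paper names no transgene or drug treatment for these animals. The comparison between the F1 groups asks whether the direction of the cross, and so which line gave the mother and which the father, goes with a difference in liver RNA.

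Reads assigned to genes numbered 46988713 to 58955349 in 9 libraries and 96023811 in that of the BFMI male. The library patBFMI 1 stood apart, with 32421 genes that had at least 1 count against 22095 to 26694 in the other 5 F1 libraries. All patBFMI libraries were sequenced on lane 5 and all matBFMI libraries on lane 6, so the lane cannot be told apart from the direction of the cross. The BFMI male was sequenced on lane 1 and the other inbred animals on lane 4. Levels of a gene are given as CPM, the count of a gene relative to all assigned reads of its library and scaled between the 10 libraries by TMM, which sets the bulk of genes level. Hepatocyte markers summed to 76069 to 101529 CPM over 9 genes, and none was at 0 in any library. Macrophage and blood markers are given beside the results of each comparison in which they differed. In bulk tissue, fewer cells of a type and less RNA per cell cannot be told apart.

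The upstream sequences of 6 genes are shown first. They are the fibrinogen chains, F11 and C8b, which had the 5 smallest p-values of the 38 between the F1 groups, and C6, the 1 gene called both between the strains and between the sexes. Fga, Fgb and Fgg encode the Aα, Bβ and γ chains of fibrinogen and lie side by side within 42.1 kb of chromosome 3. F11 encodes coagulation factor XI, and C8b and C6 encode terminal complement components. Each sequence is the 250 bases before the RefSeq start of the gene, read 5′ to 3′ on the strand of the gene in GRCm38.p6. The positions are chr3:83025903-83026152 on the plus strand for Fga, chr3:83049864-83050113 on the minus strand for Fgb, chr3:83007474-83007723 on the plus strand for Fgg, chr8:45262032-45262281 on the minus strand for F11, chr4:104766067-104766316 on the plus strand for C8b and chr15:4726960-4727209 on the plus strand for C6. Capitals mark matches, on either strand, to 3 short motifs of factors known for liver and acute phase genes. They are a short site of hepatocyte nuclear factor 1 (GTTAATNNT), the C/EBP motif (TTGCNNAA) and the interleukin 6 response motif (CTGGGAA).
Fga: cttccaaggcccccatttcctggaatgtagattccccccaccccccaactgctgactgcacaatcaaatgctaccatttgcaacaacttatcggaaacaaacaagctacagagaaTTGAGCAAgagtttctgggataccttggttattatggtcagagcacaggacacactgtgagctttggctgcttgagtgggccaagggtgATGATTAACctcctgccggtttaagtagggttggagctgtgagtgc
Fgb: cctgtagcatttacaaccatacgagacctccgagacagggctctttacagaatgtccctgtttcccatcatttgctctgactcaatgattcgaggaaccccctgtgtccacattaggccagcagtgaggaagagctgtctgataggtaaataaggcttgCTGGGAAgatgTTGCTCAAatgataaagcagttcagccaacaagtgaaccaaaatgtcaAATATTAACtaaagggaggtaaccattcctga
Fgg: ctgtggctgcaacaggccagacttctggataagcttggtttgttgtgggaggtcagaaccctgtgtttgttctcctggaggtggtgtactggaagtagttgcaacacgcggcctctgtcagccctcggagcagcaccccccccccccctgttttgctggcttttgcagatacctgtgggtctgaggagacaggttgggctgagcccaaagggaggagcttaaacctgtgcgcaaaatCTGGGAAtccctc
F11: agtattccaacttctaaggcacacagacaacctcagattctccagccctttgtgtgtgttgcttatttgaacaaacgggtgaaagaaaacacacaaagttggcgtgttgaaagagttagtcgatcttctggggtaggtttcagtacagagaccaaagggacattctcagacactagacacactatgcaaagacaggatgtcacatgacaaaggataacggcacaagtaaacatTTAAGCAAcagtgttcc
C8b: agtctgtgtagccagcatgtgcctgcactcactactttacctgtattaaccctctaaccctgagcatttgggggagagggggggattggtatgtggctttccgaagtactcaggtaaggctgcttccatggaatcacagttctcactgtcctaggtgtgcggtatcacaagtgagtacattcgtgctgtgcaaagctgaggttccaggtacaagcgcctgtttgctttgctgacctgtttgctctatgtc
C6: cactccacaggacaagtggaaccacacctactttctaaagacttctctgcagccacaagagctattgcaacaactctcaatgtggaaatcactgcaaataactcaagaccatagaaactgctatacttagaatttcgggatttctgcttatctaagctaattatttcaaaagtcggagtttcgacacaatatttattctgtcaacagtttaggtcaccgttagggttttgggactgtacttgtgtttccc

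The short site of hepatocyte nuclear factor 1 began 46 bases before the start in Fga and 32 bases before it in Fgb, and was not in the window of the other 4. A C/EBP match began 135 bases before the start in Fga, 80 bases before it in Fgb and 17 bases before it in F11. The interleukin 6 response motif began 91 bases before the start in Fgb and 13 bases before it in Fgg. None of the 3 was in the window of C8b or C6. Promoter windows were at hand for 29 of the 38 genes. Among these, 6 (20.7%) held that site, 7 (24.1%) the C/EBP motif and 4 (13.8%) the interleukin 6 response motif, against 2.27%, 9.56% and 9.1% of all 32851 windows of the same length. The shares differ in unit. Members were counted as genes with a match in any of their windows, and the background as single windows. A gene with several windows thus had more chances of a match, which can raise the share of the members. These matches describe the letters only, and binding was not measured.

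Expressed per transcript length, the 38 genes spanned a wide range of levels. The authors' RPKM values, which divide reads by gene length and library size, had a median over the 10 libraries of 2149 for Fgb, 1999 for Fgg and 1281 for Fga, the 3 highest of all members. After the fibrinogen chains came C3, the protein on which all complement arms converge, at 775 RPKM, and Serpinc1, which encodes antithrombin, at 753 RPKM. Vtn, encoding vitronectin, which binds the nascent terminal complex, was at 746 RPKM, and the ranges of C3, Serpinc1 and Vtn over libraries overlapped. The middle of the 38 medians was 158.5 RPKM. At the lower end, Masp1, a protease of the lectin arm, was at 19.1 RPKM and Pros1, which encodes protein S, at 17.7 RPKM. The levels of C2 (4.14 RPKM) and Cfb (3.02 RPKM) are not comparable with the others. An annotated gene, Gm20547, covers exons of both, 46.9% of the exonic bases of C2 and 79.5% of those of Cfb are shared with another gene, and union counting assigns a read on shared bases to neither gene. Exonic bases were shared with another gene also in Masp2 (54.9%), Serpinc1 (34.4%), Plg (11.3%), Fgg (5.49%), F5 (3.53%) and Hc (1.21%), and in no other member.

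**Figure D1:**
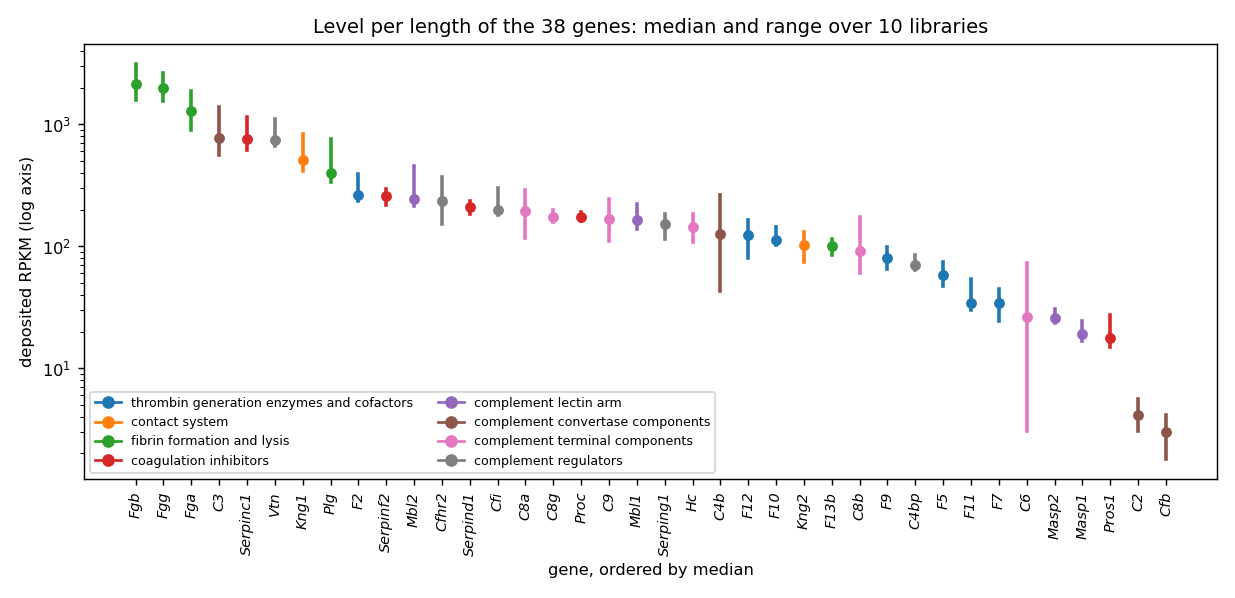
Level per length of the 38 complement and coagulation genes, as deposited RPKM on a log axis; each point is the median over the 10 libraries, each line runs from the lowest to the highest library, and colours mark the part of the cascade. The fibrinogen chains led with medians of 1281 to 2149 RPKM, and C6 had the longest line, from 3.07 to 72.4 RPKM.

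Together the 38 genes took 3.10% to 3.32% of the assigned reads in the patBFMI libraries and 2.84% to 3.07% in the matBFMI libraries. The share was 3.00% in the BFMI male, 3.33% in the BFMI female, 3.67% in the B6N male and 3.76% in the B6N female. All matBFMI libraries thus lay below all patBFMI libraries, and both B6N livers lay above every other library. This share weighs each gene by its reads, and the fibrinogen chains are among the genes with most. Mean CPM in patBFMI and matBFMI were 4633 and 3517 for Fga, 3946 and 3069 for Fgb and 3531 and 2683 for Fgg. For C3, also high, they were 4051 and 4174. The share without the fibrinogen chains was not computed, so its difference is not a trait of the whole set. Among the 6 F1 males the highest value of a gene was 1.12 to 2.17 times its lowest, with a median over the genes of 1.26 times. The gene at 2.17 times was C6.

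Between the F1 groups most members were somewhat lower in matBFMI, without any of them passing the test. The fold change was negative for 34 of the 38 (51.1% of all genes tested), with a median log2 fold change of -0.14, against -0.01 over the 16797 genes tested. The quasi-likelihood test of edgeR called 0 of the 38 at an adjusted p of 0.05, where it called 0.143% of all genes. At an unadjusted p under 0.05 by edgeR, 13 members were lower (4.7% of all genes) and 1 was higher (5.14% of all genes). At an adjusted p under 0.05, limma on the RPKM called 0 members and DESeq2 called 6 (1.82% of all genes), which were C8b, C9, F11, Fga, Fgb and Fgg. Every matBFMI library lay below every patBFMI library for 16 members (7.07% of all genes) and above for 2, Mbl2 and Cfb (8.25% of all genes; 15.3% in both directions). The number of negative members depends on the scaling. With libraries scaled by size only it was 22, the median of the members was -0.05, and that of all genes was 0.08. Leaving out patBFMI 1 gave 33.

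The terminal complement components stood lowest, with 5 of 6 at an unadjusted p under 0.05, all lower in matBFMI, and a median log2 fold change of -0.47. C8b encodes the β chain of C8, which inserts the growing pore into the membrane. It was at 436, 397 and 331 CPM in patBFMI and at 262, 229 and 223 CPM in matBFMI. The groups did not overlap, and the lowest patBFMI library lay well above the highest matBFMI library. The means were 388 ± 53.5 CPM (SD, n = 3) and 238 ± 21.2 CPM (SD, n = 3), a log2 fold change of -0.72 (SE, the standard error, 0.133, adjusted p = 0.109 by edgeR). C6, which joins C5b to start the complex, was at 162, 160.4 and 114 CPM in patBFMI and at 120.3, 98.0 and 74.6 CPM in matBFMI. The third patBFMI library overlapped the first matBFMI library. Its log2 fold change was -0.59 (SE 0.196, adjusted p = 0.368 by edgeR). The remaining terminal components, C8a, C9, Hc (which encodes C5) and C8g, had log2 fold changes of -0.53 to 0.05. C8g, the γ chain of C8, was the one on the positive side, at 246, 303 and 261 CPM in patBFMI and 267, 262 and 318 CPM in matBFMI, with overlap. C8a and C8b are neighbours on chromosome 4, with 11.1 kb between them. C8a, the α chain, was at 790, 872 and 822 CPM in patBFMI and 744, 621 and 514 CPM in matBFMI, without overlap.

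Fibrin formation and lysis was the other group with most members at an unadjusted p under 0.05, 4 of 5. All 5 had every matBFMI library below every patBFMI library. Fga was at 4097, 5047 and 4754 CPM in patBFMI and at 3247, 3547 and 3756 CPM in matBFMI. The means were 4633 ± 487 CPM (SD, n = 3) and 3517 ± 256 CPM (SD, n = 3), a log2 fold change of -0.41 (SE 0.0967, adjusted p = 0.19 by edgeR). For the other fibrinogen chains the fold changes were close to this, -0.38 for Fgb and -0.41 for Fgg. Chains of 1 protein from neighbouring genes are not 3 independent observations. Plg encodes plasminogen, the precursor of the protease that dissolves fibrin. It was at 1269, 1241 and 1268 CPM in patBFMI and at 1116, 1086 and 1095 CPM in matBFMI, a narrow spread within each group and no overlap, with a log2 fold change of -0.21 (SE 0.0825, adjusted p = 0.447 by edgeR).

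**Figure D2:**
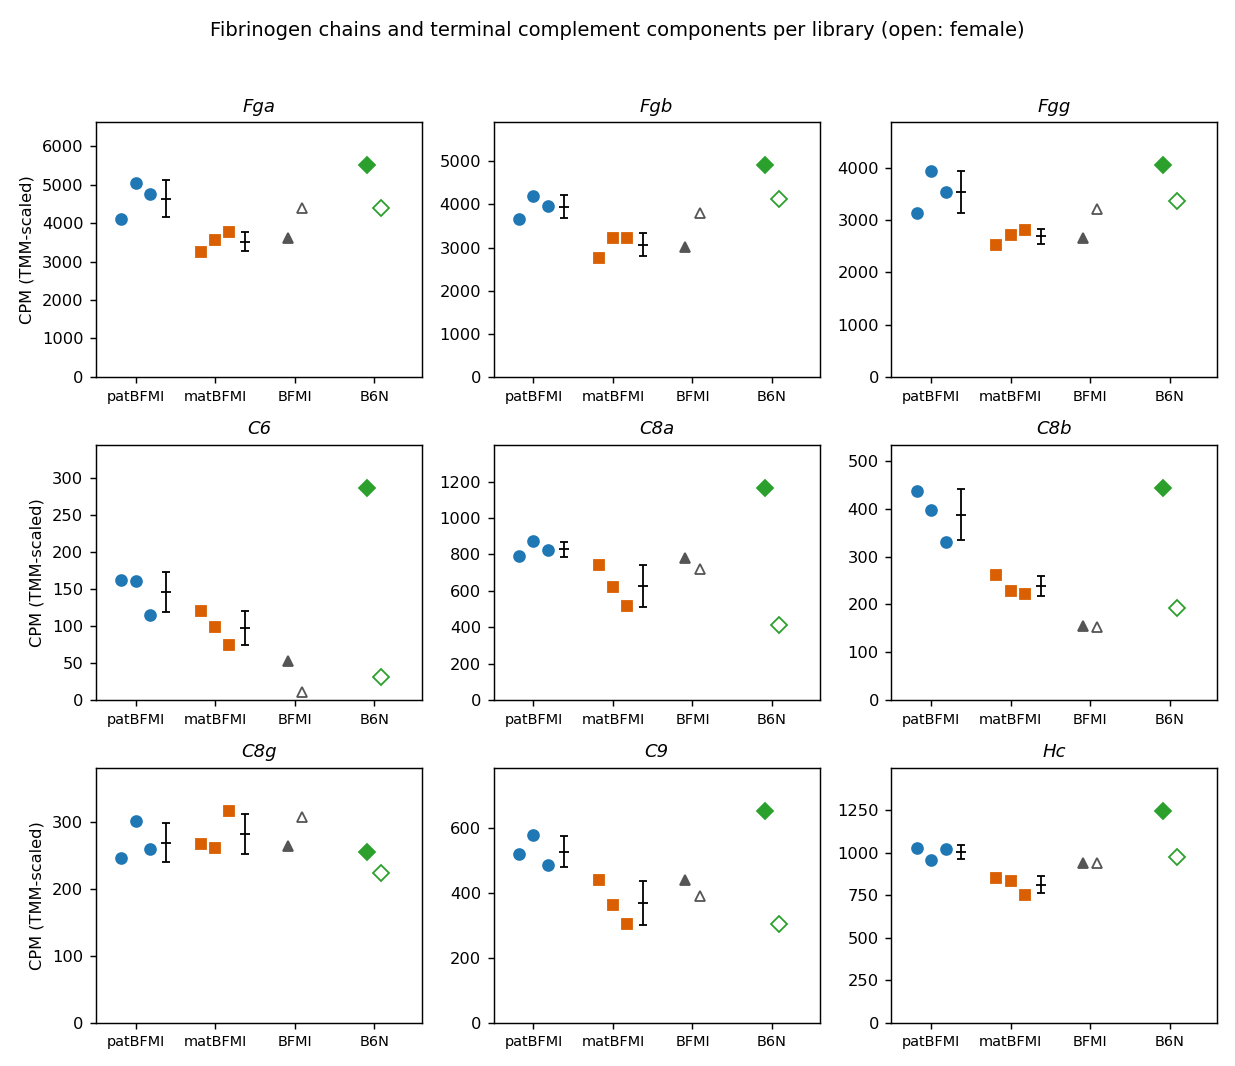
Fibrinogen chains and terminal complement components in each liver, as TMM-scaled CPM on axes from 0; filled points are males, open points are females, and black bars give mean and SD of the 3 F1 males of a group. Each fibrinogen chain had all 3 matBFMI livers below all 3 patBFMI livers, and C6, C8a, C8b and C9 were 2.15 to 9.29 times higher in the B6N male than in the B6N female.

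Of the 7 enzymes and cofactors that lead to thrombin, 1 was at an unadjusted p under 0.05 between the F1 groups. F11 encodes factor XI, which activates factor IX. It was at 102, 95.6 and 118 CPM in patBFMI and at 76.4, 74.3 and 72.6 CPM in matBFMI, with no overlap. Its means were 105 ± 11.6 CPM (SD, n = 3) and 74.5 ± 1.92 CPM (SD, n = 3), a log2 fold change of -0.51 (SE 0.102, adjusted p = 0.133 by edgeR). The other 6 had log2 fold changes of -0.17 to -0.04. The kininogens of the contact system were nearly level, at -0.04 for both Kng1 and Kng2, and both turned to 0.04 with libraries scaled by size only. Their transcripts match each other at 92.1% identity over 1398 bases, so reads may be split between them with error. Kng1 was at 1589, 1759.8 and 1675 CPM in patBFMI and at 1674, 1515 and 1740.2 CPM in matBFMI. Kng2 was at 251, 260.5 and 289 CPM in patBFMI and at 261, 254 and 269 CPM in matBFMI, and for both the groups overlapped.

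Among the coagulation inhibitors, Pros1 had the smallest p. Protein S is the cofactor with which activated protein C inactivates factors V and VIII. Pros1 was at 88.8, 77.8 and 77.2 CPM in patBFMI and at 68.1, 71.0 and 69.4 CPM in matBFMI, without overlap. The log2 fold change was -0.24 (SE 0.0962, adjusted p = 0.452 by edgeR), and the other 4 inhibitors lay between -0.21 and -0.06. With libraries scaled by size only, that of Pros1 was -0.16.

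In the lectin arm and among the convertase components, the fold changes lay on both sides of 0. Mbl2 encodes mannose-binding lectin C, which recognises sugars on microbes. It was at 256, 271 and 234 CPM in patBFMI and at 296, 281 and 301 CPM in matBFMI, so every matBFMI liver lay higher, with a log2 fold change of 0.19 (SE 0.0988, adjusted p = 0.576 by edgeR). Masp1 was at 53.4, 55.1 and 52.7 CPM in patBFMI and at 53.6, 52.4 and 47.5 CPM in matBFMI, and the groups overlapped. C2, the protease of the classical and lectin convertase, was at 19.2, 17.9 and 19.2 CPM in patBFMI and at 16.4, 13.6 and 15.2 CPM in matBFMI, without overlap (log2 fold change -0.33, SE 0.0944, adjusted p = 0.28 by edgeR). Cfb, the protease of the alternative convertase, was at 6.18, 6.94 and 6.86 CPM in patBFMI and at 7.27, 8.36 and 10.5 CPM in matBFMI. It was the 1 member higher in matBFMI at an unadjusted p under 0.05 (log2 fold change 0.38, adjusted p = 0.413 by edgeR). For C2 and Cfb only the bases that no other gene covers enter these counts. C4b, the partner of C2 in the classical and lectin convertase, was at 796, 804 and 891 CPM in patBFMI and at 776, 739 and 931 CPM in matBFMI, a log2 fold change of -0.04 that turned to 0.04 with libraries scaled by size only. The 5 regulators had log2 fold changes of -0.21 to -0.03. Vtn had the smallest p of them, at 1623, 1619 and 1585 CPM in patBFMI and 1436, 1354 and 1461 CPM in matBFMI, without overlap (log2 fold change -0.20, SE 0.0834, adjusted p = 0.485 by edgeR). With libraries scaled by size only, its log2 fold change was -0.12.

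**Figure D3:**
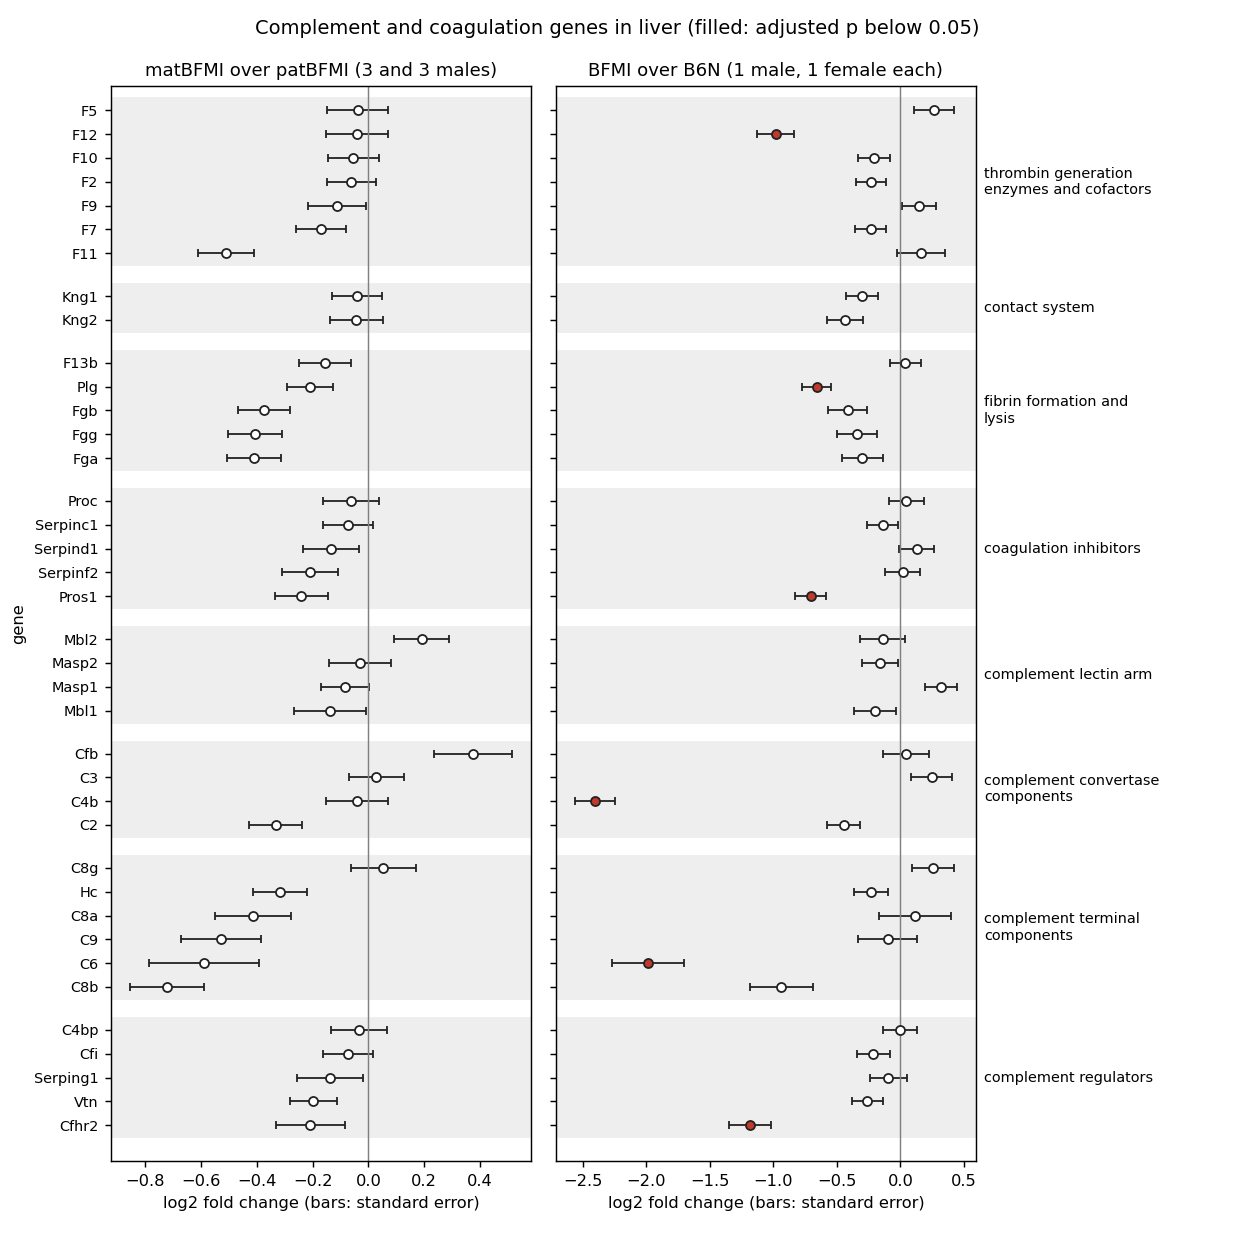
Log2 fold changes of the 38 genes with their standard errors, grouped by part of the cascade, between the F1 groups (left) and between the inbred strains (right); the axes differ in scale and filled points passed an adjusted p of 0.05. On the left 34 points lie on the negative side and none is filled (with libraries scaled by size only, 22 would lie there), and on the right 6 are filled, all lower in BFMI.

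Other genes of the pathway did not pass between the F1 groups either. Of 36 other plasma proteins of the cascades tested, 0 passed, 6 were lower and 0 higher at an unadjusted p under 0.05, and the median log2 fold change was -0.13. Of 21 receptors and cell surface regulators, 0 passed and 1 was lower at that p. The 3 chains of C1q, which macrophages make, had log2 fold changes of -0.38 to -0.28 and all were at an unadjusted p under 0.05. Kupffer cell and macrophage markers leaned the same way, and they include the C1q chains. All 15 had negative fold changes, 10 at an unadjusted p under 0.05, and their summed level was 374 to 389 CPM in patBFMI and 298 to 340.3 CPM in matBFMI, with 0 of 15 at 0 in any library. Its part in the results was not tested. The 9 hepatocyte markers had a median log2 fold change of -0.01, with 5 negative and 4 at an unadjusted p under 0.05, all lower. Of 8 genes of the vitamin K cycle and of factor secretion, which clotting factors need for their carboxylation and export, 0 passed, and 2 were higher in matBFMI at an unadjusted p under 0.05. Of 20 liver transcription factors and genes of interleukin 6 signalling, 0 passed, with 3 higher and 1 lower at that p. Among 16 acute phase genes 0 passed, with 0 higher and 3 lower at that p, and 12 had negative fold changes. DESeq2 and limma were not tallied over these lists.

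Between the inbred strains, 6 of the 38 passed the test, and all were lower in BFMI (3.05% of all genes tested were called lower, 6.67% in either direction). They were C4b, Cfhr2, C6, F12, Pros1 and Plg, from 6 of the 8 parts of the cascade. Negative fold changes were found for 26 of the 38 (54.6% of all genes tested), with a median log2 fold change of -0.21, against -0.04 over the 19974 genes tested. The contrast was fitted in all 10 libraries with a term for sex, and most of its estimate of spread comes from the F1 males.

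C4b encodes complement C4, which is cleaved to form the convertase of the classical and lectin arms. It was at 254 CPM in the BFMI male and 260.2 CPM in the BFMI female, against 1488 and 1241 CPM in the B6N male and female. B6N was thus 5.85 times higher in males and 4.77 times higher in females, and the log2 fold change was -2.40 (SE 0.159, adjusted p = 1.33e-05 by edgeR). All 6 F1 males lay between the inbred males, at 739 to 931 CPM. C4b matches its neighbour C4a at 96% identity over the whole transcript, so part of its reads may have been assigned to the other gene. C4a was called lower in BFMI as well, by a log2 fold change of -1.79 (adjusted p = 3.1e-05 by edgeR), at 57.5 and 36.5 CPM in the BFMI male and female and 179 and 139.5 CPM in the B6N male and female.

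Cfhr2, a complement regulator, was at 229 and 296 CPM in the BFMI male and female and at 598 and 585 CPM in the B6N male and female. The log2 fold change was -1.19 (SE 0.166, adjusted p = 0.00189 by edgeR). The F1 males lay in between, at 419, 417 and 394 CPM in patBFMI and at 388, 386 and 300.5 CPM in matBFMI. Its transcript matches that of Gm4788 at 91.8% identity over 862 bases, so its reads may be assigned with error.

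F12 encodes factor XII, the protease with which the contact system starts clotting on a surface. It was at 148 and 163 CPM in the BFMI male and female and at 312 and 301 CPM in the B6N male and female, and the log2 fold change was -0.98 (SE 0.145, adjusted p = 0.0026 by edgeR). The F1 males lay at 251, 256 and 258 CPM in patBFMI and at 231, 233 and 287 CPM in matBFMI, all between the inbred males. Between the F1 groups its log2 fold change was -0.04, and 0.04 with libraries scaled by size only.

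Pros1 was at 57.9 and 68.7 CPM in the BFMI male and female and at 102 and 104 CPM in the B6N male and female, a log2 fold change of -0.71 (SE 0.121, adjusted p = 0.00606 by edgeR). Plg was at 887 and 1042 CPM in the BFMI male and female and at 1476 and 1563 CPM in the B6N male and female, a log2 fold change of -0.66 (SE 0.114, adjusted p = 0.00648 by edgeR). For both genes all 6 F1 males lay between the inbred males. The matBFMI males, whose values are given above, lay nearer to BFMI than the patBFMI males did in both.

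C6 was at 53.2 and 10.8 CPM in the BFMI male and female and at 287 and 30.9 CPM in the B6N male and female. The log2 fold change between strains was -1.99 (SE 0.28, adjusted p = 0.002 by edgeR), with B6N 5.4 times higher in males and 2.87 times higher in females. The 6 F1 males, at 74.6 to 162 CPM, lay between the inbred males. C8b, at 154 and 152 CPM in the BFMI male and female and 444 and 193 CPM in the B6N male and female, came close to the threshold (log2 fold change -0.94, SE 0.249, adjusted p = 0.0531 by edgeR). B6N was 2.88 times higher than BFMI in males and 1.27 times higher in females. Without the BFMI female or without the B6N female, where the males alone set the contrast, the adjusted p was 0.00889 and 0.009 by edgeR, within a range of 0.000835 (DESeq2) to 0.568 (without the BFMI male) over all alternatives.

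**Figure D4:**
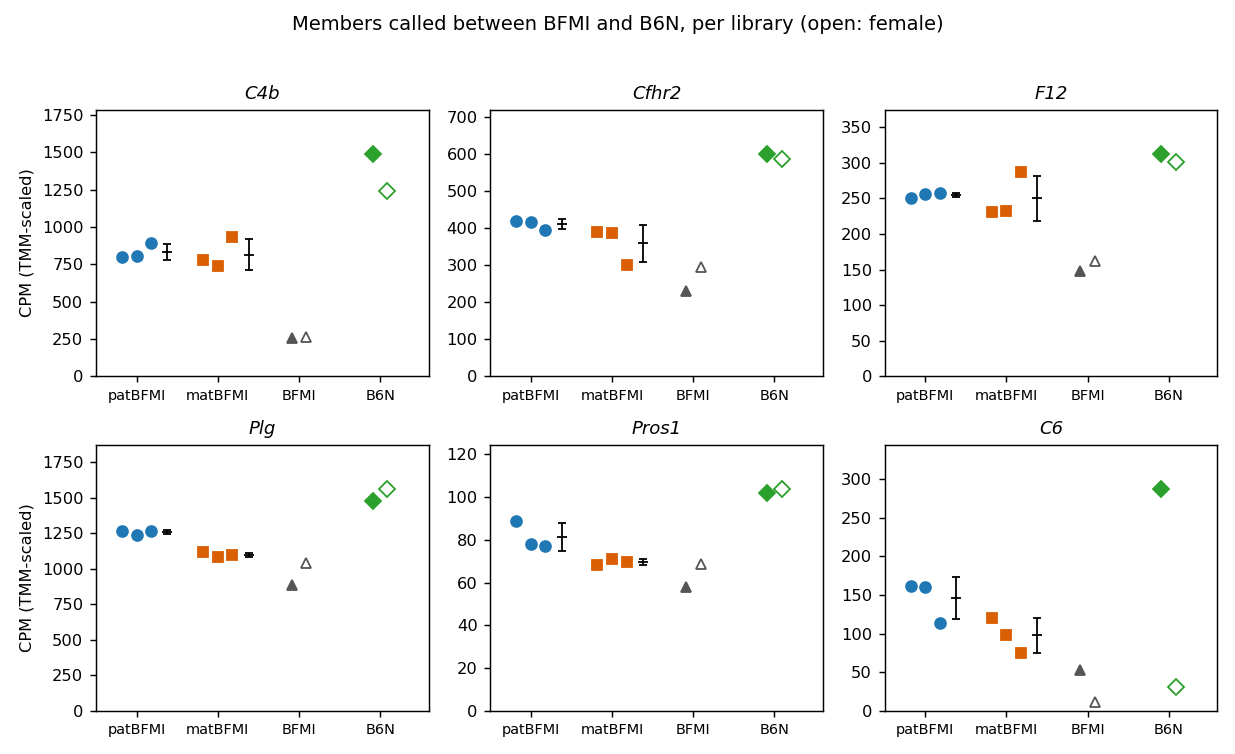
The 6 genes called between BFMI and B6N in each liver, as TMM-scaled CPM on axes from 0; filled points are males, open points are females, and black bars give mean and SD of the 3 F1 males of a group. In each panel the 6 F1 males lie between the BFMI male and the B6N male, and C6 alone differs between the sexes of a strain by several fold.

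The calls other than that of C4b depended on the males. The BFMI male was alone on lane 1 and had the deepest library, while the B6N male was on lane 4. Lane and depth therefore cannot be told apart from strain between the males. Without the BFMI female or without the B6N female all 6 still passed. Without the BFMI male, or without the B6N male, the contrast compares the females alone, and then 1 of the 6, C4b, still passed. The log2 fold changes of the other 5 lay between -1.52 and -0.56 there, with adjusted p from 0.0535 to 0.122 by edgeR. Plg also missed the threshold with no filter on low counts (adjusted p = 0.0899 by edgeR), and over all alternatives its adjusted p ran from 7.65e-09 with DESeq2 to 0.105. For C4b the range was 2.92e-56 with DESeq2 to 0.000976 without the BFMI male. Macrophage markers were lower in BFMI as well, 7 of 15 called, at a summed 373 and 445 CPM in the BFMI male and female against 599 and 609.6 CPM in the B6N male and female. Blood cell markers were higher, 5 of 9 called, at a summed 923 and 735 CPM in BFMI against 395 and 226 CPM in B6N. The part of either in the strain differences was not tested.

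By DESeq2 8 members passed (8.37% of all genes), with C8b and Kng2 added to the 6, and at a minimum of 50 counts C2 and C8b were added. Members that did not pass between the strains in edgeR covered a narrower range. Outside the 6 called genes and C8b, the log2 fold changes ran from -0.45 (C2) to 0.32 (Masp1). Kng2 was at 177 and 269 CPM in the BFMI male and female and at 277 and 314 CPM in the B6N male and female (log2 fold change -0.44, adjusted p = 0.119 by edgeR). Kng1 was at 1275 and 1601 CPM in BFMI and 1669 and 1860.4 CPM in B6N, in the same order of sexes (-0.30, adjusted p = 0.219 by edgeR). Masp1 was higher in the BFMI male, at 63.2 against 44.0 CPM in the B6N male, and at 51.2 against 47.5 CPM in the females (0.32, adjusted p = 0.197 by edgeR). C2 was at 12.7 and 14.0 CPM in BFMI and at 19.5 and 16.9 CPM in B6N (-0.45, adjusted p = 0.0765 by edgeR). Vtn was at 1341 and 1600.4 CPM in BFMI and at 1768 and 1741 CPM in B6N (-0.26, adjusted p = 0.288 by edgeR).

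For some members the males and the females did not order the strains alike. Fga was at 3621 CPM in the BFMI male against 5514 CPM in the B6N male, while the females were at 4391 and 4379.8 CPM. F11 was at 63.0 CPM in the BFMI male and 76.5 CPM in the B6N male, and at 102 CPM in the BFMI female and 67.1 CPM in the B6N female. Mbl2 was at 287 and 244 CPM in the BFMI and B6N males and at 351 and 500.4 CPM in the females. The strain by sex interaction was tested in a fit whose spread comes from the F1 males alone. It called 0 of the 38 by edgeR (0.03% of all genes tested), with 8 at an unadjusted p under 0.05 (7.87% of all genes), and other tools were not run on it.

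Of the other genes of the cascades, 6 of 39 plasma proteins passed between the strains, 5 lower and 1 higher in BFMI. Among the lower ones were C4a and Cfp, which encodes properdin, the stabiliser of the alternative convertase (log2 fold change -0.87). The higher one was Serpina5, the protein C inhibitor, with a log2 fold change of 3.44, at 2.53 and 1.53 CPM in the BFMI male and female and 0.074 and 0.305 CPM in the B6N male and female. Of 22 receptors and cell surface regulators 1 passed, Vsig4, a complement receptor of macrophages, at -0.56. Of the 3 chains of C1q, C1qb (-0.79) and C1qc (-0.70) were lower. Of the 8 vitamin K cycle and secretion genes 0 passed by edgeR, with 0 at an unadjusted p under 0.05. Of 20 transcription factors and genes of interleukin 6 signalling 1 passed, Onecut1, at -2.13. Of 16 acute phase genes 4 were called, all higher in BFMI, and these were Orm3, Serpina3n, Apcs and Lcn2. At an unadjusted p under 0.05 by edgeR, 8 were higher and 3 lower. The summed level of the list went the other way, at 7549 and 7777 CPM in the BFMI male and female against 8643 and 8192 CPM in the B6N male and female.

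Between the sexes of the inbred strains, 1 of the 38 passed, C6, which was lower in females (0.245% of all genes tested were called lower in females, 0.556% in either direction). The BFMI male was 4.94 times and the B6N male 9.29 times above the female of the strain. The log2 fold change was -2.77 (SE 0.287, adjusted p = 0.00241 by edgeR), and with 1 animal of a sex in each strain there is no replicate within a strain. Without the B6N male the adjusted p was 0.0599, and without the B6N female it was 0.0579. Over all alternatives it ranged from 1.8e-41, with no filter on low counts, to 0.0599. C8b was lower in females on average, at 152 against 154 CPM in BFMI and 193 against 444 CPM in B6N (log2 fold change -0.61, SE 0.248, adjusted p = 0.541 by edgeR). Of the terminal components, 4 of 6 were lower in females at an unadjusted p under 0.05 (7.8% of all genes in either direction), and 3 of 6 reached it in the interaction of strain and sex, with B6N showing the larger difference. Mbl2 was higher in females by 0.66 on the log2 scale (SE 0.175, adjusted p = 0.193 by edgeR), which did not pass. F7, encoding factor VII, which starts clotting with tissue factor, came closest after C6, at 42.7 and 56.0 CPM in the BFMI and B6N males and 72.3 and 76.4 CPM in the females (log2 fold change 0.60, adjusted p = 0.0707 by edgeR). Over all 38, 23 fold changes were positive, where 10918 of the 19974 genes tested were, and the median was 0.08, against 0.03 over all genes tested.

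Against the mid-value of the inbred strains, 0 of the 38 differed in the F1 males by edgeR (2.05% of all genes tested were called). At an unadjusted p under 0.05 by edgeR, 3 were higher and 2 lower, where 16.6% of all genes reached that p. At an adjusted p under 0.05, limma on the RPKM called 0 members and DESeq2 called 3 (4.36% of all genes), which were C4b, Cfi and F7. The median log2 fold change was 0.02, against 0.01 over all genes tested, and the range was -0.45 (C8a) to 0.42 (C4b). The mid-value was the mean of the strains on the log scale. Where the strains differ widely, as for C4b, it lies below the mean of their CPM. The positive value of C4b thus need not mean a level above the mean of the strains' CPM. For 12 of the 38 genes all 6 F1 males lay between the BFMI male and the B6N male, and for 5 none did. The share over all genes was not counted, so whether these numbers are unusual cannot be said. The acute phase list differed in the same contrast, with 7 of 16 called, all lower in the F1 males, among them Saa2 and Lcn2. Macrophage markers were lower too, 6 of 15 called, with a median log2 fold change of -0.44, and 1 of 9 blood markers was called lower. The part of these cells was not tested. Of 39 other plasma proteins of the cascades, 2 were higher and 1 was lower in the F1 males. One of the higher ones was Hpn, a liver protease, at 0.67 on the log2 scale. Since the sources differ on the diet of the inbred animals, hybrid state and diet may not be separable in this contrast.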

How the data were processed

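Liver RNA of 10 mice was sequenced. The authors deposited raw counts per Ensembl gene, made by union counting on the GRCm38 assembly, and RPKM values, which they quantile-normalised. Trimmomatic 0.32, TopHat2 2.10 with Bowtie2 2.2.6, and Picard 1.99 are credited in the submitters' processing notes, whereas the methods of the study name BWA as the aligner. The records name both polyA RNA and depletion of ribosomal RNA. Whether counting used strand is not given in the sources used here. Columns of 3 samples that carry no record here were not used.

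Samples were grouped by the labels. The counts were fitted with the quasi-likelihood test of edgeR 4.0.16 (R 4.3.3) after TMM scaling. The fit of the 6 F1 males required 10 or more counts of a gene in 3 or more libraries. The fit of all 10 libraries, with a term for sex, required 10 or more counts in 2 or more, and gave the contrasts of strain, sex and F1 males against the inbred mid-value. P-values were adjusted by Benjamini-Hochberg over all genes tested, with a threshold of 0.05. Replicates are separate animals and exist in the F1 groups only, where p-values set a difference against the spread between them. An inbred strain has no replicate animal of a sex. In the fit of all 10 libraries most of the spread therefore comes from the F1 males. The biological coefficient of variation was 15.9% in the F1 males and 17.7% in all libraries. The fits were tested on simulated data. The alternatives were DESeq2 1.42.0, limma 3.58.1 on log2(RPKM + 1) and log2(RPKM + 0.1), other scalings, no filter on low counts, at least 50 counts, the offspring number as a block and the omission of each library in turn.

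Values in every library are given for members that passed in any comparison and, in each part of the cascade, for the member with the smallest p between the F1 groups and the one with the largest fold change between the strains. C8a, C8g, Cfb, F7 and C4a were added after their values were seen. Genes of other lists are counted, naming at most 4 that passed. Some genes that passed are not reported here. The members, lists and tests were chosen with earlier results of these data known. Promoters came from RefSeq, gene models from the annotation of GRCm38, and similar transcripts from BLAST 2.17.0, keeping matches of at least 100 bases, 90% identity and 10% of the transcript.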

Additional observations from a re-analysis of the deposited data

How the results depend on the processing

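Between the F1 groups, the number of members called (0) was 6 with DESeq2, 6 with no filter on low counts and 2 (C6 and C8b) with the offspring number as a block. The number of all genes called (24) was 56 with scaling by library size only, 305 with DESeq2, 696 with no filter, 15 with at least 50 counts, 2 with limma at either pseudocount, 175 with the block and 12 in the fit of all libraries, and 7 to 63 with 1 library left out. Negative members fell in number from 34 to 22 with scaling by library size only. The offspring numbers gave correlations of 0.44, 0.04 and 0.25 between same-numbered samples, and matBFMI 2 correlated best with patBFMI 3 (0.27), so they were taken as numbers only. Between the strains, members called (6) were 8 with DESeq2, 8 with at least 50 counts and 1 to 7 with 1 library left out, and all genes called (1332) were 364 and 320 with limma at pseudocounts of 1 and 0.1 and 536 to 1523 with 1 library left out. Between the sexes, members called (1) were 4 with DESeq2, 4 with no filter, 2 with at least 50 counts and 0 to 3 with 1 library left out: 2 without the BFMI male, 3 without the BFMI female and 0 without the B6N male or the B6N female. All genes called (111) were 384 with DESeq2, 582 with no filter, 40 and 34 with limma and 38 to 156 with 1 library left out. For F1 males against the inbred mid-value, members called (0) were 3 with DESeq2, and all genes called (410) were 871 with DESeq2, 1410 with no filter, 264 and 42 with limma and 13 to 937 with 1 library left out. Log2 fold changes between the F1 groups turned positive with scaling by library size only for C4b (0.0400), F12 (0.0428), Kng1 (0.0413) and Kng2 (0.0357). With 1 library left out they ran from -0.144 to 0.0239 for C4b, -0.148 to 0.0174 for F12, -0.0808 to 0.0128 for Kng1 and -0.0680 to 0.0131 for Kng2. Between the strains they ran from -0.28 to 0.63 for F11, -0.61 to 0.0328 for Fga and -0.52 to 0.23 for Mbl2. The cause of these changes was not tested. Of the recomputed log2 fold changes of named genes, 481 kept direction and side of the threshold and 16 changed direction. With the direction kept, 21 came to pass the threshold and 13 ceased to pass it. Each sex of a strain is 1 animal, which limits the precision of the contrasts of strain and sex.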
